A study of Mus musculus with 9 samples.

Results

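Axon guidance genes encode paired ligands and receptors that tell cells where to stop, turn or separate. In mouse esophageal epithelial organoids, 40 such genes were listed as changed between genotypes, out of 8742 genes listed in all. They were chosen by symbol among the listed genes, with earlier results of these data known. The symbols were those of Eph receptors, ephrins, semaphorins (Sema), plexins (Plxn), neuropilins (Nrp), Slit, Robo, netrins (Ntn) and Unc5 receptors. The prefixes also picked up Slitrk5 and Slitrk6, membrane proteins that are named for their likeness to Slit and are not Slit ligands. The deposited tables hold only genes that the authors called in at least 1 of 3 pairwise comparisons, so each of the 40 had to be called somewhere. Of the 78 protein-coding genes of the mouse annotation with these prefixes (Unc50, which belongs to none of the families, included), the other 38 were not analysed here.

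Organoids are small epithelial bodies grown from dissociated cells, here esophageal epithelium collected 7 days after seeding and given no treatment. The wild type group is called WT, the group labelled as a knockout of Trp53 and Notch1 is called PN, and the group labelled as a knockout of Trp53, Cdkn2a and Notch1 is called PCN. Each had 3 libraries, and the labels leave out the strain, the age of the donor animals and the way the genes were edited. They do not say either whether the 3 libraries of a group are separate cultures, animals or clones. The p-values therefore cover the spread between these libraries alone, which may be technical.

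Eph receptors are tyrosine kinases that bind ephrins on the surface of neighbouring cells, and in epithelia they help to sort cells and keep layers apart. Semaphorins signal through plexins, with neuropilins as co-receptors for the secreted class 3 members. Slits bind Robo receptors and netrins bind Unc5 receptors. All of these pathways act on the cytoskeleton through small GTPases, and many of their genes are active in squamous epithelium as well as in nerve and vessel.

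Total counts per library ran from 14695420 to 15093994 (WT), 16857744 to 18912526 (PN) and 17422590 to 20198041 (PCN). Trp53 fell in both edited groups (log2 fold change -5.51 ± 0.12, adjusted p = 2.5e-12 in PN and -5.27 ± 0.13, adjusted p = 2.3e-12 in PCN), and so did Notch1 (-0.72 ± 0.09, adjusted p = 2.9e-05 and -1.77 ± 0.10, adjusted p = 1e-08). Cdkn2a RNA went against its label: it was 8.996 ± 2.2 CPM (counts scaled to a library total of 1000000; mean ± SD, n = 3) in WT, 22.1 ± 0.6 in PN and 65.2 ± 4.3 in the libraries labelled as its knockout. Reads over the full gene cannot show what the edit did, so that group is called the libraries labelled PCN. WT replicate 3 stood further from its 2 fellows (chi-square per degree of freedom 29.3 and 20.4) than those stood from each other (10.4).

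Of 14 epithelial markers 13 were listed, which shows a change called by the authors and cannot show which cells were present. Those with counts in every library were abundant, and summed to between 33937 and 36088 CPM (WT), 11098 and 11419 (PN) and 12999.9 and 13518 (PCN). Most of that drop was in Krt13 and Krt4, keratins of the upper squamous layers. The basal keratin Krt15 rose in both edited groups, as did Trp63, but other markers of the list did not share this. Itgb4 fell in both (-0.42 ± 0.07, adjusted p = 0.00028 and -0.39 ± 0.07, adjusted p = 0.00064), and Itga6 fell in PN (-0.53 ± 0.07, adjusted p = 3.7e-05). Krt14 was flat in PN (0.01, outside that table) and higher in PCN (0.32 ± 0.09, adjusted p = 0.017). Krt5 was slightly lower in PCN than in PN (-0.14 ± 0.04, adjusted p = 0.016). Of markers of other cells, those listed were 5 of 20 for neuron and Schwann cells, 1 of 16 for endothelium (Esam), 1 of 17 for fibroblast and mural cells (Fbln1) and 3 of 16 for leukocytes. A marker that is not listed may still be expressed, so these counts do not show how many such cells there were. Pecam1, Cdh5, Sox10, Rbfox3, Col1a1 and Ptprc were among those not listed, and their levels were not analysed here. The 5 neuron and Schwann markers summed to between 201 and 236 CPM (WT), 136 and 143 (PN) and 140.5 and 145 (PCN), mostly Erbb3, while Tubb3, Map2, Snap25 and Ret rose in PN. Of the leukocyte markers, Cd68 and S100a9 had counts in every library and summed to 107 to 133 CPM (WT), 32.2 to 35.7 (PN) and 20.9 to 24.4 (PCN). Cd68, a lysosomal protein of macrophages, fell in both edited groups (-2.07 ± 0.10, adjusted p = 3.9e-09 and -2.73 ± 0.10, adjusted p = 1.5e-10), as did S100a9 (-0.77 ± 0.15, adjusted p = 0.0012 and -1.18 ± 0.22, adjusted p = 0.00092), which squamous epithelium also makes. S100a8, not analysed here in WT, was higher in PCN than in PN at a low level (2.07 ± 0.38, adjusted p = 7.3e-05). Esam lay between 5.63 and 11.7 CPM (WT), 4.65 and 5.99 (PN) and 4.55 and 6.03 (PCN), with overlap, and fell in both edited groups (-0.84 ± 0.25, adjusted p = 0.016 and -0.85 ± 0.25, adjusted p = 0.016). Fbln1 lay between 182 and 194 CPM (WT) and 187 and 193 (PN), and rose in PCN to between 268 and 294 (0.59 ± 0.07, adjusted p = 1.7e-05). In these bulk libraries fewer cells of a type and less RNA per cell cannot be told apart. The part of these shifts in the results that follow was not tested.

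Of the 40 members, 9 were called higher and 20 lower in PN at an adjusted p of 0.05. The authors' table for this pair held 32 of them, and 30 passed the filter on low counts. Of the 17165 genes the authors tested, 36.4% were called (17.6% higher, 18.8% lower). Of the 8742 listed genes, which had to pass the same gate as the members, 71.5% were called in this comparison, 34.6% higher and 36.9% lower. In the libraries labelled PCN, 9 of the 40 rose and 16 fell against WT, with 27 in that table and 25 past the filter. Over all genes, 36.5% of 17300 were called, 17.5% higher and 19% lower. For the 8742 listed genes the share was 72.2%, with 34.6% higher and 37.6% lower. Between the edited groups, 16 of the 40 were higher in the libraries labelled PCN and 6 lower, with 24 in that table and 22 past the filter. Over all genes, 23.8% of 14758 were called, 12.3% higher and 11.5% lower. For the 8742 listed genes the share was 40.1%, with 20.7% higher and 19.4% lower. These counts come from genes already called on the same libraries, so nothing is read from their size. The median log2 fold change of the members with counts in both groups was -0.48 in PN against WT, -0.27 in PCN against WT and 0.19 in PCN against PN, over 32 members in each, those outside that pair's table included. Over all genes fitted in the same way the medians were -0.07, -0.08 and 0.00. Without WT replicate 3 10 rose and 20 fell in PN, and 9 rose and 16 fell in libraries labelled PCN. Over all genes, 3014 were then called higher and 3217 lower in PN (of 17165), and 3047 and 3294 in PCN (of 17300). In what follows each change is a log2 fold change ± its standard error with the adjusted p of edgeR, and a gene outside a pair's table is given a value with no test.

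**Figure D1:**
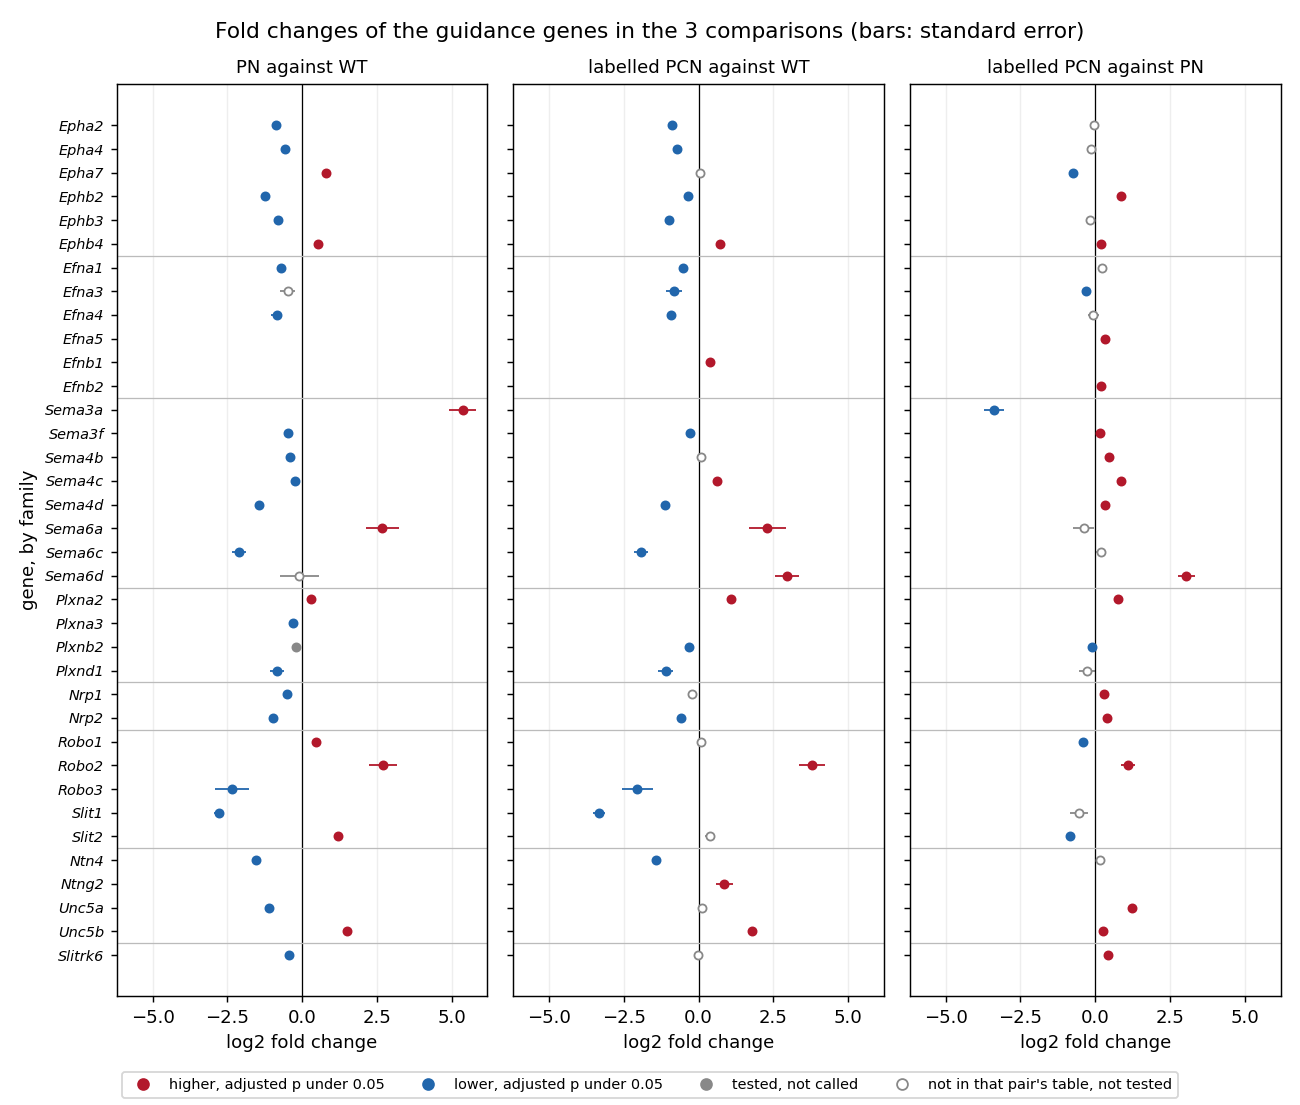
Log2 fold change (horizontal axis) of each guidance gene that could be fitted, by family (vertical axis), with its standard error, in the 3 comparisons. Sema3a in PN (5.38) and Robo2 in the libraries labelled PCN (3.80) lie furthest to the right against WT, and Slit1 (-2.78 and -3.32) furthest to the left.

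Levels of different genes were compared as FPKM, which divides by gene length. The plexin Plxnb2 stood highest of the members in every group, at 132.8 ± 10.4 FPKM in WT, 115.4 ± 3.3 in PN and 106.7 ± 2.5 in libraries labelled PCN. In WT it overlapped with Epha2 (126 FPKM), which was followed by Sema4b (67.1), Sema3f (58.7) and Efnb1 (51.0). Of these neighbours, Sema3f and Efnb1 overlapped in WT, and Epha2 and Sema4b did not. In libraries labelled PCN, Sema4b (69.9 FPKM), Epha2 (67.7) and Efnb1 (66.8) followed Plxnb2 and overlapped with each other in that order. At the other end, 12 of 38 members with values in WT were under 1 FPKM, as were 13 of 38 in PN and 12 of 37 in libraries labelled PCN. Sema3a, Sema6d, Sema6a and Robo2, which have large fold changes below, were under 1 FPKM in every group, and Slit1, which fell steeply, stood at 2.68 (WT), 0.385 (PN) and 0.265 FPKM (PCN).

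Promoter sequence is shown for 4 members, chosen after their values were seen to stand for the patterns described below: Epha7, Sema3a and Robo1, which rose in PN, and Sema6d, which was high in the libraries labelled PCN. Each is the 250 bases before a RefSeq transcript start on GRCm38.p6, read along the gene, in the order Epha7 (chr4:28812881-28813130, plus strand), Sema3a (chr5:13396534-13396783, plus strand), Robo1 (chr16:72662899-72663148, plus strand) and Sema6d (chr2:124089719-124089968, plus strand).
Epha7: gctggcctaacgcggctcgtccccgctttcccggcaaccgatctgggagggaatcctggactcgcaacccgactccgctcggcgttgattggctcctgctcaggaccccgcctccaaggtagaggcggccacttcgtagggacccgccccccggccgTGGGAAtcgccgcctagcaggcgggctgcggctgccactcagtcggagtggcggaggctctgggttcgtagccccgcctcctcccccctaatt
Sema3a: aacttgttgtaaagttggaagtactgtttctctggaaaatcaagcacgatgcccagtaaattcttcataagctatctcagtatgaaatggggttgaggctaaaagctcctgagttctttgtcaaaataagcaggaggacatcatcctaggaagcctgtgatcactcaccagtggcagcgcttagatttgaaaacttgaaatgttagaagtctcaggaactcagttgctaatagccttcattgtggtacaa
Robo1: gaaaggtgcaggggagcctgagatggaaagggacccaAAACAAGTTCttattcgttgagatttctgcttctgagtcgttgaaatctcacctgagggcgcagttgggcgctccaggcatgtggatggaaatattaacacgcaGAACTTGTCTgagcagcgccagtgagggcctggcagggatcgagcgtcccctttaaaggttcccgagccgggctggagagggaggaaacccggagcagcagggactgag
Sema6d: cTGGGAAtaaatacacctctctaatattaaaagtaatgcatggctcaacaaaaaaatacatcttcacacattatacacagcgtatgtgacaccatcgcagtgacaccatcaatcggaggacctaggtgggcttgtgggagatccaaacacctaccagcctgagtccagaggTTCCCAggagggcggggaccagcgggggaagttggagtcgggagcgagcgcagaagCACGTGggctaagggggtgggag
Capitals mark letters searched on both strands because the edited genes act through them: TGGGAA, the core bound by RBPJ, the DNA-binding partner of Notch, and the p53 half-site, to which CACGTG, the canonical E-box, was added. No 2 matches in these windows overlap. Epha7 held 1 TGGGAA (bases -93 to -88, counted from the start), Robo1 held 2 p53 half-sites (-213 to -204 and -109 to -100), and Sema6d held 2 TGGGAA (-249 to -244 and -79 to -74) and 1 CACGTG (-23 to -18). Sema3a held none of these letters in this window. Sema6d has another window, at a later start (chr2:124653331-124653580), with 0 matches. Epha7 has another that overlaps the one shown (chr4:28812895-28813144), with 1 TGGGAA at -107 to -102. The Sema3a and Robo1 windows lie inside the gene spans, which begin at 13125414 and 72308306, so the first start of each gene is not shown. Of the 37 members with a RefSeq window, 8 held TGGGAA (21.6%, against 24.1% of 27025 genes), 5 held CACGTG (13.5% against 6.86%) and 4 held a p53 half-site (10.8% against 8.20%). A match describes letters only, and no binding was measured. The members' windows were richer in G and C, with a median of 64.4% against 52.4% over all windows. Slit1, Sema3f and Sema6a had no window.

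Among the ephrin ligands, the 3 neighbours Efna1, Efna3 and Efna4 on chromosome 3 were each called lower in at least 1 edited group. Efna1, a membrane-anchored ligand of EphA receptors (ENSMUSG00000027954, chromosome 3, 89271733 to 89281142), stood at 44.1, 44.3 and 49.4 CPM in the WT libraries, 28.8, 27.7 and 26.4 in PN and 31.6, 34.8 and 29.9 in those labelled PCN. Every edited library lay below every WT library, and the change was -0.72 ± 0.09 (adjusted p = 2.6e-05) in PN and -0.51 ± 0.09 (adjusted p = 0.00057) in libraries labelled PCN. Efna4 (ENSMUSG00000028040, chromosome 3, 89333390 to 89338028), of the same class, gave 11.8, 11.5 and 11.8 CPM in the WT libraries, 8.19, 6.54 and 4.71 in PN and 6.29, 5.97 and 6.34 in those labelled PCN. Its groups did not overlap with WT either, with changes of -0.85 ± 0.18 (adjusted p = 0.0024) in PN and -0.91 ± 0.14 (adjusted p = 0.00016) in PCN. Efna3 stood at 43.5, 32.4 and 18.4 CPM in the WT libraries, 23.8, 22.3 and 20.99 in PN and 18.8, 16.6 and 18.1 in those labelled PCN, and its WT libraries spread more than 2-fold, so that WT overlapped with both edited groups (-0.48 ± 0.26 in PN, outside that table). Its fall in PCN against WT (-0.81 ± 0.27, adjusted p = 0.046) was lost in 7 of 12 alternatives, and without WT replicate 1 it was -0.50 (adjusted p = 0.093). Its fall against PN (-0.32 ± 0.09, adjusted p = 0.0093) had no overlap between groups and was not called without PN replicate 1 or in 1 fit over all 9 libraries. Exons of Efna3 and Efna4 share 14.1% and 10.5% of their bases with antisense genes, and the counting is not stated to use strand, so reads could come from either.

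The B-type ephrins, which span the membrane and can signal into their own cell, were listed in fewer tables. Efnb1 (ENSMUSG00000031217, chromosome X, 99136130 to 99148991), the most abundant listed ephrin per length, stood at 200.4, 192 and 136 CPM in WT and 226, 220.5 and 246 in libraries labelled PCN, and PN was not analysed here. The rise of 0.39 ± 0.13 (adjusted p = 0.035) was not called when any 1 of the PCN libraries was left out (adjusted p 0.059 to 0.13), and without the low WT replicate 3 it was 0.24 and called (adjusted p = 0.0035). Efnb2, an arterial marker in vessels, was 64.9, 63.5 and 62.5 CPM in PN and 73.03, 71.1 and 74.1 in libraries labelled PCN, a small rise (0.19 ± 0.06, adjusted p = 0.01). Efna5 rose likewise, from 19.2, 17.6 and 20.7 to 25.1, 24.2 and 22.4 CPM (0.32 ± 0.09, adjusted p = 0.0082), and lost its call without PN replicate 2 or PCN replicate 1. For both, WT was not analysed here.

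All 8 listed Eph receptors, of 14 in the mouse annotation, were in the authors' table for PN against WT, which has 4 higher and 4 lower. Of the 6 that passed the filter on low counts 4 fell and 2 rose, and the other 2, Epha3 and Epha8, were among the higher ones. In libraries labelled PCN 4 of the 8 fell and 1 rose, and only these 5 were in the table against WT. Over all listed genes, 34.6% were called higher and 36.9% lower in PN, and 34.6% and 37.6% in PCN. Epha2, the main Eph receptor of epithelia (ENSMUSG00000006445, chromosome 4, 141301240 to 141329384), stood at 565, 609 and 595 CPM in the WT libraries, 322, 324 and 324 in PN and 302, 315 and 332 in those labelled PCN. The groups edited at Trp53 and Notch1 both lay far below WT and overlapped with each other, with a change of -0.86 ± 0.06 (adjusted p = 2.7e-07) in PN and -0.89 ± 0.07 (adjusted p = 3.5e-07) in libraries labelled PCN. Epha2 made up 75.3% of the summed FPKM of the 6 Eph receptors measured everywhere in WT and 62.1% in PN and 61.2% in libraries labelled PCN, and that sum went from 167.6 ± 6.0 FPKM to 111.5 ± 1.5 and 110.6 ± 4.3 (no test). Ephb3, which sorts cells in the intestinal crypt (ENSMUSG00000005958, chromosome 16, 21204755 to 21223305), stood at 88.04, 95.6 and 76.4 CPM in the WT libraries, 50.01, 49.7 and 47.9 in PN and 42.3, 42.6 and 46.1 in those labelled PCN. Its change was -0.81 ± 0.09 (adjusted p = 9.9e-06) in PN and -0.98 ± 0.09 (adjusted p = 1.3e-06) in libraries labelled PCN, with no overlap with WT. Epha4 (ENSMUSG00000026235, chromosome 1, 77367185 to 77515088), a receptor that binds ephrins of both classes, was 31.7, 43.8 and 46.1 CPM in the WT libraries, 24.3, 27.03 and 29.03 in PN and 25.2, 21.9 and 25.6 in those labelled PCN, and fell in both groups (-0.59 ± 0.13, adjusted p = 0.0032 and -0.74 ± 0.13, adjusted p = 0.00065). Between the edited groups these 3 receptors were outside the table, at -0.03 ± 0.05 for Epha2, -0.17 ± 0.07 for Ephb3 and -0.14 ± 0.09 for Epha4.

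Ephb2 and Epha7 set PN apart from both other groups. Ephb2, a relative of Ephb3 (ENSMUSG00000028664, chromosome 4, 136647539 to 136835988), stood at 33.6, 37.9 and 35.9 CPM in the WT libraries, 16.97, 13.2 and 15.2 in PN and 30.5, 25.7 and 27.01 in those labelled PCN. PN was lowest, libraries labelled PCN lay between, and no 2 groups overlapped. The differences were -1.23 ± 0.11 (adjusted p = 2.1e-06) for PN against WT, -0.36 ± 0.10 (adjusted p = 0.011) for PCN against WT and 0.88 ± 0.10 (adjusted p = 3.6e-08) for PCN against PN. The middle value was not called without WT replicate 2 or PCN replicate 2 (adjusted p 0.052 and 0.061). Epha7 (ENSMUSG00000028289, chromosome 4, 28813131 to 28967499), whose promoter is shown above, went the other way: 34.1, 38.6 and 37.03 CPM in the WT libraries, 57.96, 65.1 and 65.3 in PN and 34.5, 41.4 and 35.98 in those labelled PCN. It rose in PN (0.79 ± 0.09, adjusted p = 8.3e-06) and was lower in libraries labelled PCN than in PN (-0.76 ± 0.07, adjusted p = 1.9e-09). Against WT the libraries labelled PCN differed by 0.03 ± 0.10, outside that table. The same PN libraries enter both tested comparisons.

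Ephb4, the receptor of venous endothelium that binds Efnb2, was the 1 listed Eph receptor called higher in both edited groups. It stood at 82.8, 78.9 and 72.3 CPM in the WT libraries, 107, 113 and 115 in PN and 123, 128 and 130.1 in those labelled PCN. It rose in PN (0.53 ± 0.07, adjusted p = 9.3e-05) and in libraries labelled PCN (0.71 ± 0.08, adjusted p = 5.6e-06), with no overlap with WT. The step from PN to PCN was small (0.19 ± 0.05, adjusted p = 0.0054) and was not called without PN replicate 1 (adjusted p = 0.053) or in 1 fit over all 9 libraries (0.076). Epha8 and Epha3 were close to silent and could not pass the filter on low counts. Epha8 had 46 counts over the PN libraries and 4 in WT, all 4 in WT replicate 3, a ratio of 9.83 (exact 95% interval 3.59 to 37.6, counting error only). The ratio was 5.99 without PN replicate 2, and at least 8.68-fold without WT replicate 3. Epha3 had 17 counts in PN (11, 1 and 5) and 0 in WT, so with WT set at the floor, 3 counts over the group, it was at least 4.84-fold higher, and at least 2.51-fold without PN replicate 1. Without the filter both were called (adjusted p = 0.015 and 0.029). Their levels in PCN were not analysed here.

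**Figure D2:**
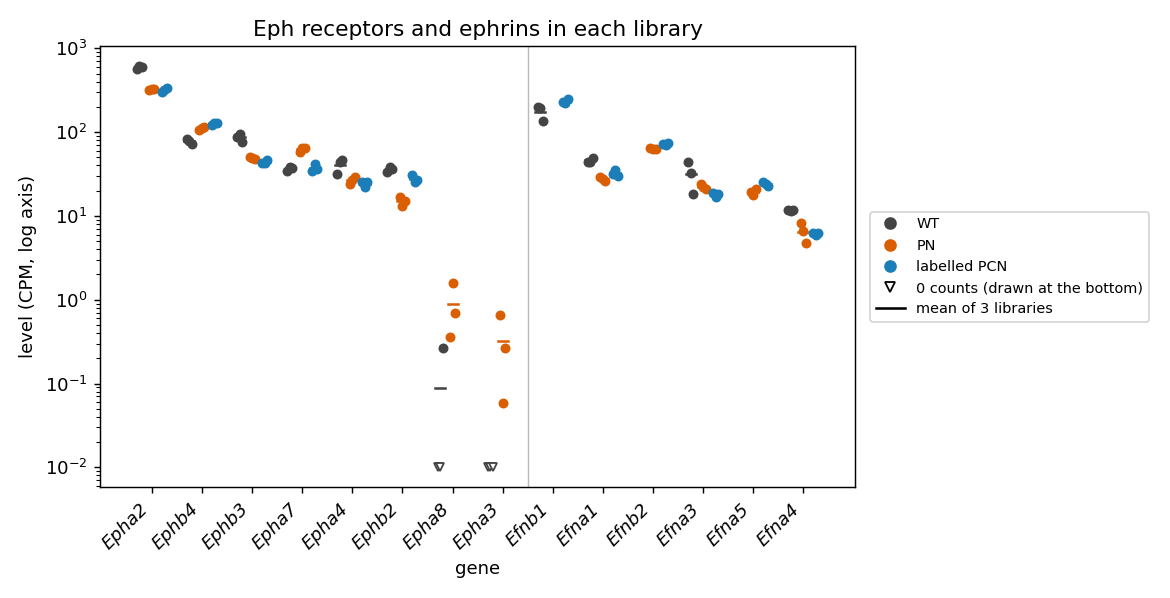
Level of each Eph receptor (left) and ephrin (right) in CPM on a log axis, 1 point per library and a line at the mean of 3 libraries, with groups not analysed here left out. Epha2 is highest, with WT at 565 to 609 CPM and all edited libraries at 302 to 332, and Epha7 stands at 58.0 to 65.3 CPM in PN and 34.1 to 41.4 in the other groups.

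The semaphorins included rises and falls of several fold. Sema3a, a secreted ligand that repels axons through Nrp1 (ENSMUSG00000028883, chromosome 5, 13125414 to 13602565), was all but absent from WT with 1, 2 and 1 counts, against 59, 63 and 90 in PN and 4, 10 and 7 in libraries labelled PCN. Scaled to the totals, these were 0.0668, 0.136 and 0.0663 CPM in the WT libraries, 3.5, 3.71 and 4.76 in PN and 0.198, 0.574 and 0.376 in those labelled PCN. PN lay far above both other groups, and no groups overlapped. It rose in PN (5.38 ± 0.45, adjusted p = 7.5e-07), about 41.6-fold in the fit, and was lower again in libraries labelled PCN than in PN (-3.396 ± 0.33, adjusted p = 1.7e-09). The ratio of the counts in PN to the 4 in WT was 45.3 (exact 95% interval 17.4 to 168). Libraries labelled PCN against WT, 21 counts to 4, gave a ratio of 4.19 (1.41 to 16.8), not tested.

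Sema6d behaved the other way round. This transmembrane semaphorin (ENSMUSG00000027200, chromosome 2, 124089969 to 124667770) stood at 0.735, 0.136 and 1.26 CPM in the WT libraries, 0.356, 1.18 and 0.476 in PN and 5.45, 5.57 and 5.64 in those labelled PCN. The 3 libraries labelled PCN lay close together and above all others, while WT and PN overlapped (-0.09 ± 0.65, outside that table). The rise was 2.95 ± 0.40 (adjusted p = 5.6e-05) against WT and 3.05 ± 0.29 (adjusted p = 1.1e-09) against PN. It grew to 3.64 without WT replicate 3 and, against PN, to 3.71 without PN replicate 2, the libraries with the most counts in their groups. Sema6a, its relative on chromosome 18, was higher in both edited groups at low level: 0.468, 0.136 and 0.0663 CPM in the WT libraries, 1.13, 1.35 and 1.904 in PN and 0.693, 1.21 and 1.504 in those labelled PCN. WT replicate 1 held 7 of the 10 WT counts. Its rise was 2.69 ± 0.56 (adjusted p = 0.0017) in PN and 2.300 ± 0.61 (adjusted p = 0.0075) in libraries labelled PCN, and without that library 3.78 and 3.40 (count ratios 14.8, interval 4.88 to 73.3, and 11.2, interval 3.65 to 55.5).

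Sema6c, another of these transmembrane relatives, fell. It (ENSMUSG00000038777, chromosome 3, 95160457 to 95174024) was 22.98, 24.8 and 13.1 CPM in the WT libraries, 5.28, 4.42 and 4.23 in PN and 5.64, 5.57 and 4.73 in those labelled PCN. Even the low WT replicate 3 lay more than 2-fold above every edited one, and the change was -2.12 ± 0.23 (adjusted p = 1.9e-05) in PN and -1.93 ± 0.23 (adjusted p = 3e-05) in libraries labelled PCN. Sema4d, which signals through Plxnb1 and Plxnb2, stood at 144, 153 and 151 CPM in the WT libraries, 54.3, 56.9 and 52.5 in PN and 74.4, 69.1 and 62.1 in those labelled PCN. It fell in PN (-1.44 ± 0.07, adjusted p = 4.7e-09) and in libraries labelled PCN (-1.12 ± 0.08, adjusted p = 1.1e-07), and was somewhat higher in the latter than in PN (0.33 ± 0.07, adjusted p = 0.00029).

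The 3 most abundant of the listed semaphorins, Sema4b, Sema3f and Sema4c, moved little in PN and were all higher in libraries labelled PCN than in PN. Sema4b (ENSMUSG00000030539, chromosome 7, 80186841 to 80226527), a membrane-bound class 4 member, was 377, 391 and 368 CPM in the WT libraries, 293, 277 and 288 in PN and 394, 409 and 381 in those labelled PCN. It fell in PN (-0.39 ± 0.06, adjusted p = 0.00026), and libraries labelled PCN overlapped with WT (0.06 ± 0.07, outside that table) and lay above PN (0.46 ± 0.04, adjusted p = 1.4e-09). Sema4c changed sign: 152, 140.2 and 125 CPM in the WT libraries, 121, 121 and 107 in PN and 209, 212 and 217 in those labelled PCN. Its rise in libraries labelled PCN (0.62 ± 0.08, adjusted p = 3.3e-05 against WT, 0.87 ± 0.05, adjusted p = 5.1e-14 against PN) left no overlap. Its small fall in PN (-0.25 ± 0.09, adjusted p = 0.036) was not called in 6 of 12 alternatives (adjusted p up to 0.21), and 7.27% of its exon bases are shared with a gene on the other strand. Sema3f, a secreted ligand of Nrp2, was 320.3, 338 and 257 CPM in the WT libraries, 223, 215 and 216 in PN and 236, 249 and 255 in those labelled PCN, with a change of -0.48 ± 0.09 (adjusted p = 0.001) in PN. Its smaller fall in PCN against WT (-0.303 ± 0.10, adjusted p = 0.022) was not called in 5 of 12 alternatives (adjusted p up to 0.14), while PCN against PN was 0.18 ± 0.05 (adjusted p = 0.0033), not called in 1 fit over all 9 libraries (adjusted p = 0.28). The FPKM of the 8 listed semaphorins summed to 179 ± 13 in WT, 126.4 ± 2.8 in PN and 174.2 ± 2.7 in libraries labelled PCN (no test). The mouse annotation has 20 semaphorin genes, and the others were not analysed here.

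The neuropilins Nrp1 and Nrp2, co-receptors for class 3 semaphorins and for VEGF, both fell in PN. Nrp2 (ENSMUSG00000025969, chromosome 1, 62703285 to 62818695) stood at 153, 164 and 158 CPM in the WT libraries, 83.2, 81.4 and 76.5 in PN and 108, 99.5 and 108 in those labelled PCN. No 2 groups overlapped: PN was lowest (-0.97 ± 0.07, adjusted p = 1.8e-07), and libraries labelled PCN lay between it and WT (-0.58 ± 0.07, adjusted p = 2e-05 against WT, 0.39 ± 0.06, adjusted p = 2.1e-06 against PN). Nrp1 (ENSMUSG00000025810, chromosome 8, 128358604 to 128503363) was 54.5, 61.7 and 66.8 CPM in the WT libraries, 40.1, 42.05 and 45 in PN and 50.05, 53.1 and 52.4 in those labelled PCN. It fell in PN (-0.51 ± 0.09, adjusted p = 0.00052) and was higher in libraries labelled PCN than in PN (0.29 ± 0.07, adjusted p = 0.0011). Against WT it differed by -0.23 ± 0.09 in libraries labelled PCN, outside that table. Sema3a was highest in the group where RNA of its co-receptor Nrp1 was lowest.

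Of the plexins, the semaphorin receptors, Plxna2 rose and Plxnd1 fell. Plxna2, a receptor for class 3 and class 6 semaphorins (ENSMUSG00000026640, chromosome 1, 194618218 to 194816869), stood at 82.96, 96.5 and 93.2 CPM in the WT libraries, 104, 114 and 117 in PN and 199.7, 188 and 185 in those labelled PCN. The groups stepped upward without overlap, by 0.31 ± 0.08 (adjusted p = 0.0071) in PN and 1.08 ± 0.08 (adjusted p = 1.1e-07) in libraries labelled PCN (0.77 ± 0.05, adjusted p = 7.6e-13 against PN). Plxnd1 (ENSMUSG00000030123, chromosome 6, 115954811 to 115995005), known from blood vessels, was low throughout: 5.81, 7.08 and 5.23 CPM in the WT libraries, 4.63, 2.77 and 2.697 in PN and 1.78, 3.21 and 3.44 in those labelled PCN. It fell in libraries labelled PCN (-1.11 ± 0.26, adjusted p = 0.0034). Its fall in PN (-0.84 ± 0.24, adjusted p = 0.015) was not called without PN replicate 2 or 3 or WT replicate 2 (adjusted p 0.073 to 0.084).

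Plxnb2, the most abundant member (ENSMUSG00000036606, chromosome 15, 89155549 to 89180788), was 935, 1052 and 1088 CPM in the WT libraries, 879, 873 and 921 in PN and 815, 846 and 811 in those labelled PCN. WT lay above the libraries labelled PCN (-0.31 ± 0.08, adjusted p = 0.0045), while PN against WT missed the threshold (-0.19 ± 0.07, adjusted p = 0.054, with 0.0083 to 0.042 in the 5 alternatives that called it). The difference between the edited groups (-0.11 ± 0.04, adjusted p = 0.044) was not called in 8 of 12 alternatives. Plxna3 (ENSMUSG00000031398, chromosome X, 74329066 to 74344689), 38.9, 48.3 and 44.1 CPM in WT and 33.5, 37.3 and 34.2 in PN, fell slightly (-0.31 ± 0.10, adjusted p = 0.021). That call was lost in 4 of 11 alternatives, with TMM scaling (adjusted p = 0.079) among them, and PCN was not analysed here. Plxnc1, the receptor for Sema7a, had 1 count in WT, 5 in PN and 34 in libraries labelled PCN, 21 of them in replicate 3, too few for the fit. The ratio was 27.1 against WT (4.55 to 1103) and 6.38 against PN (2.48 to 20.9), and 15.5 and 3.64 without that library. Without WT replicate 1, which held the single WT count, it was at least 6.02-fold higher. Without the filter on low counts both comparisons were called (adjusted p = 0.0057 and 0.014).

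**Figure D3:**
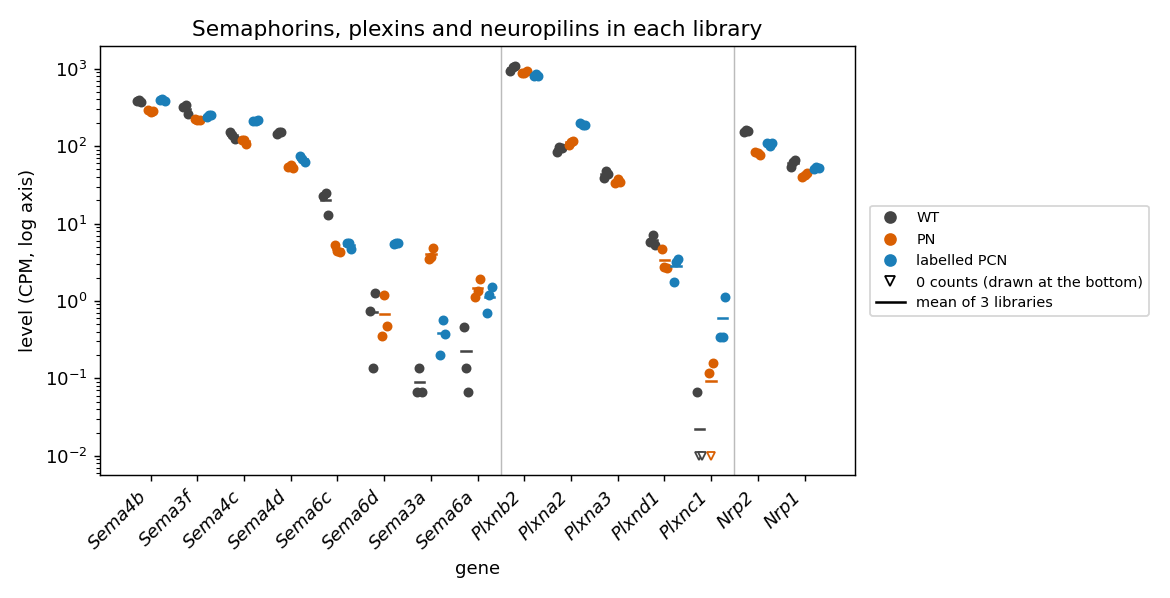
Level of each semaphorin (left), plexin (middle) and neuropilin (right) in CPM on a log axis, 1 point per library and a line at the mean of 3 libraries. Sema3a stands at 3.50 to 4.76 CPM in PN and under 0.6 elsewhere, and Sema6d at 5.45 to 5.64 CPM in libraries labelled PCN and under 1.3 elsewhere.

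The Slit ligands moved apart. Slit1 (ENSMUSG00000025020, chromosome 19, 41600257 to 41743665), a secreted repellent best known in the nervous system, stood at 16.7, 15.99 and 14.9 CPM in the WT libraries, 1.72, 2.42 and 2.697 in PN and 2.08, 1.49 and 1.13 in those labelled PCN. All 6 edited libraries lay at least 5-fold below the lowest WT library, with a change of -2.78 ± 0.18 (adjusted p = 6e-08) in PN and -3.32 ± 0.21 (adjusted p = 2e-08) in libraries labelled PCN. PN and PCN overlapped (-0.53 ± 0.29, outside that table). Slit2, a relative that binds the same receptors (ENSMUSG00000031558, chromosome 5, 47983138 to 48307733), was 6.75, 8.78 and 9.34 CPM in the WT libraries, 15.9, 21.7 and 19.7 in PN and 11.6, 9.81 and 10.7 in those labelled PCN. It rose in PN (1.21 ± 0.16, adjusted p = 4.4e-05) and was lower in libraries labelled PCN than in PN (-0.83 ± 0.12, adjusted p = 2e-06). Libraries labelled PCN stood just above WT (0.38 ± 0.16, outside that table). Per length, Slit1 stood above Slit2 in WT (2.68 against 0.326 FPKM), and below it in PN (0.385 against 0.750).

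The 3 listed Robo genes each took another course. Robo1 (ENSMUSG00000022883, chromosome 16, 72308306 to 73046095), which made up 62.7% of the summed FPKM of the listed Slit and Robo genes in WT, was 81.9, 111 and 84.3 CPM in the WT libraries, 121, 128 and 135 in PN and 99.3, 102 and 91.1 in those labelled PCN. PN lay above both other groups (0.48 ± 0.11, adjusted p = 0.0028 against WT), libraries labelled PCN fell from it (-0.395 ± 0.06, adjusted p = 1.5e-06), and these overlapped with WT (0.08 ± 0.11, outside that table). Its neighbour Robo2 on chromosome 16 (ENSMUSG00000052516, chromosome 16, 73891839 to 74411825) stood at 0.267, 0.06805 and 0.398 CPM in the WT libraries, 1.78, 1.53 and 1.59 in PN and 4.21, 3.21 and 3.06 in those labelled PCN. It climbed from near 0 in steps without overlap, by 2.705 ± 0.48 (adjusted p = 0.00054) in PN and 3.798 ± 0.43 (adjusted p = 7.9e-06) in libraries labelled PCN, and by 1.101 ± 0.24 (adjusted p = 0.00068) between them. So from PN to PCN Robo2 rose while Robo1 fell. Robo3 (ENSMUSG00000032128, chromosome 9, 37415669 to 37433246), which lets axons cross the midline, fell: 0.801, 3.13 and 1.72 CPM in the WT libraries, 0.297, 0.177 and 0.582 in PN and 0.297, 0.631 and 0.4296 in those labelled PCN. WT libraries spread almost 4-fold, and the change was -2.36 ± 0.57 (adjusted p = 0.0049) in PN and -2.05 ± 0.52 (adjusted p = 0.0064) in libraries labelled PCN. Without WT replicate 2, the highest, the latter was -1.48 and not called (adjusted p = 0.053).

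Of the netrin genes, Ntn4 fell in both edited groups. Ntn4, a netrin of basement membranes that binds laminin (ENSMUSG00000020019, chromosome 10, 93640681 to 93747207), stood at 49.8, 50.3 and 50.4 CPM in the WT libraries, 15.3, 17.3 and 18.3 in PN and 18.6, 20.8 and 17.2 in those labelled PCN. WT libraries lay within 1 CPM of each other and at more than 2-fold every edited library, and the change was -1.55 ± 0.10 (adjusted p = 4.2e-08) in PN and -1.41 ± 0.10 (adjusted p = 6.5e-08) in libraries labelled PCN. The edited groups overlapped (0.15 ± 0.10, outside that table). Ntng2, a membrane-anchored netrin-G of neurons (ENSMUSG00000035513, chromosome 2, 29194541 to 29253005), was 1.54, 2.18 and 1.99 CPM in WT and 2.77, 4.25 and 3.38 in libraries labelled PCN. This rise (0.86 ± 0.28, adjusted p = 0.023) was lost in 3 of 11 alternatives, and 14% of its exon bases belong to another transcript on the same strand.

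The netrin receptors Unc5a and Unc5b differed in pattern. Both can trigger cell death when no ligand is bound, and Unc5b is known as a target of p53. Unc5b (ENSMUSG00000020099, chromosome 10, 60762593 to 60831581) rose in both groups with low Trp53 RNA: 15.9, 15.9 and 17.7 CPM in the WT libraries, 48.8, 44.9 and 45.5 in PN and 53.9, 55.7 and 58.7 in those labelled PCN. The rise was 1.504 ± 0.10 (adjusted p = 5.9e-08) in PN and 1.77 ± 0.10 (adjusted p = 4.5e-09) in libraries labelled PCN, and the latter lay above PN (0.27 ± 0.06, adjusted p = 0.0014), with no overlap between any 2 groups. Unc5a (ENSMUSG00000025876, chromosome 13, 54949411 to 55006018) was 30.2, 33.9 and 25.04 CPM in the WT libraries, 13.6, 14.1 and 13.5 in PN and 31.9, 32.5 and 31.9 in those labelled PCN. PN lay below every other library, with a change of -1.102 ± 0.12 (adjusted p = 1.2e-05) against WT and of 1.23 ± 0.09 (adjusted p = 2.5e-12) from PN to PCN. Libraries labelled PCN overlapped with WT (0.12 ± 0.11, outside that table). Per length, Unc5a stood above Unc5b in WT (7.13 against 2.63 FPKM) and below it in PN (3.29 against 7.42). The promoter windows of Unc5a and Unc5b, 250 bases each, held none of the 3 motifs. Sequence outside these windows was not searched, so this does not show whether either gene has a p53 site.

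Slitrk6, needed for inner ear innervation (ENSMUSG00000045871, chromosome 14, 110748580 to 110755149), was 76.8, 89.8 and 95.1 CPM in the WT libraries, 59.1, 62.1 and 70.1 in PN and 89.6, 84.6 and 82.8 in those labelled PCN. It fell in PN (-0.44 ± 0.09, adjusted p = 0.0021) and was higher in libraries labelled PCN than in PN (0.42 ± 0.06, adjusted p = 3.6e-06), which overlapped with WT. Other genes of chromosome 14 shared this course: 259 of 276 called there fell in PN against WT (93.8%) and 322 of 327 rose in PCN against PN. The median log2 fold changes of all fitted genes of that chromosome, -0.56 and 0.60, were larger than those of Slitrk6, and what this chromosome-wide shift adds to Slitrk6 was not tested. Slitrk5, on the same chromosome, had 0 counts in all WT and PN libraries and 17, 9 and 8 in those labelled PCN. That was at least 9.04-fold above WT and at least 10.6-fold above PN against the floor of 3 counts over a group, and at least 5.99-fold with any 1 library left out. Without the filter both were called (adjusted p = 0.0018 and 0.00026).

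**Figure D4:**
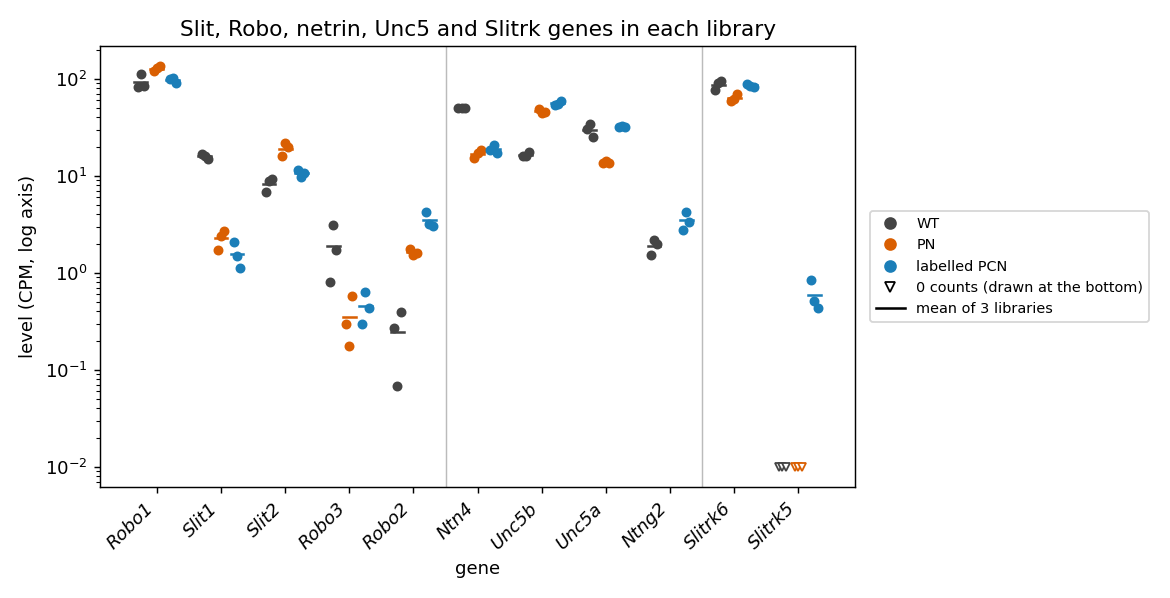
Level of each Slit and Robo gene (left), netrin and Unc5 gene (middle) and Slitrk gene (right) in CPM on a log axis, 1 point per library and a line at the mean of 3 libraries. Slit1 and Ntn4 lie far lower in both edited groups than in WT, Unc5b lies higher, and Unc5a stands at 13.5 to 14.1 CPM in PN and 25.04 to 33.9 in the other groups.

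Of 36 co-receptors and binding partners of these pathways, 20 were listed. In PN 6 rose and 11 fell, in libraries labelled PCN 6 rose and 10 fell, and between the edited groups 7 were higher in PCN and 8 lower. The shares over all 8742 listed genes were 34.6% higher and 36.9% lower in PN, 34.6% and 37.6% in PCN, and 20.7% and 19.4% between the edited groups. Flrt1, of a family that binds Unc5 receptors, rose in steps: it was 1.34 ± 0.11 CPM (WT), 3.199 ± 0.16 (PN) and 9.89 ± 0.25 (PCN), with log2 fold changes against WT 1.26 ± 0.26 (adjusted p = 0.0017) and 2.88 ± 0.20 (adjusted p = 8.1e-08). Flrt2 fell (-0.74 ± 0.16, adjusted p = 0.0025 and -1.43 ± 0.18, adjusted p = 2.5e-05), as did the heparan sulfate carrier Sdc1, at 1865 ± 188, 961 ± 29 and 539.5 ± 22 CPM in the same order (-0.95 ± 0.08, adjusted p = 7.3e-07 and -1.79 ± 0.09, adjusted p = 1.4e-09). The adhesion molecule Nrcam, a partner of Nrp2, was 2.35 ± 0.53 CPM in PN (2.32 ± 0.42, adjusted p = 0.00057 against WT) and 0.107 ± 0.093 in libraries labelled PCN (-4.37 ± 0.48, adjusted p = 1.9e-08 against PN). Gpc3, another heparan sulfate carrier, rose in PN from 0.0895 ± 0.1 to 1.69 ± 0.12 CPM (4.14 ± 0.60, adjusted p = 0.0001). Sdc1, Nrcam and Flrt2 lie on chromosome 12, where 6 listed partner or signalling genes were all lower in PCN than in PN. Of all genes called on that chromosome, 275 of 298 (92.3%) were lower in that comparison, and its fitted genes had a median log2 fold change of -0.84 against PN and -0.90 against WT. The part of this chromosome-wide shift in the falls of Sdc1, Nrcam and Flrt2 was not tested. No member lies there.

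Of 77 genes that carry the signal inside the cell, 52 were listed, with 15 higher and 19 lower in PN, 17 higher and 18 lower in libraries labelled PCN, and 20 higher and 9 lower in PCN against PN. Of the 52, fitted values were available for 39, 40 and 43 in these comparisons, in that order. These counts stand beside the same shares over all listed genes, 34.6% higher and 36.9% lower in PN, 34.6% and 37.6% in PCN against WT, and 20.7% and 19.4% in PCN against PN. Ablim3, an actin-binding protein, stood at 8.55 ± 0.45 CPM (WT), 0.5601 ± 0.22 (PN) and 0.424 ± 0.14 (PCN) and fell in both edited groups (-3.89 ± 0.27, adjusted p = 1.4e-07 and -4.299 ± 0.28, adjusted p = 3.1e-08). Anks1b, a scaffold protein, fell at a low level (-4.34 ± 0.66, adjusted p = 0.00016 and -4.14 ± 0.63, adjusted p = 0.00012). Dpysl3, a cytosolic mediator of the semaphorin response, rose in PN from 0.155 ± 0.21 to 1.12 ± 0.1 CPM (2.79 ± 0.66, adjusted p = 0.0042). Mical1, an enzyme that takes actin filaments apart downstream of plexins, rose in libraries labelled PCN (2.54 ± 0.52, adjusted p = 0.0013 against WT and 3.47 ± 0.56, adjusted p = 1.3e-05 against PN), from 0.225 ± 0.17 to 1.32 ± 0.17 CPM.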

How the data were processed

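RNA of 9 organoid libraries was compared in 3 pairs of groups. The deposited tables, 1 per pair, list just the genes that the authors called at an adjusted p of 0.05. The raw counts, the FPKM (per gene length and library total), the normalized signal (counts divided by a size factor per library and pair), the log2 fold changes and the p-values were made by the authors, per the file headers. The submitters' processing notes name CASAVA, DESeq, GRCm38 and mm10, while neither they nor the labels name an aligner, a counter or an annotation release. Library totals, size factors and the number of genes adjusted over were recovered from the deposited values.

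Each whole table was fitted by the robust quasi-likelihood F test of edgeR 4.0.16 (R 4.3.3, filterByExpr, the authors' size factors as offsets), two-sided, with Benjamini-Hochberg adjustment over the recovered number of genes and a threshold of 0.05. These genes were already selected on the same libraries, so the refit is not independent evidence. The refitted log2 fold changes differed from those of the authors' deposited table by 0.114 at most over 77 values. A gene outside a pair's table got a value from a fit over genes with counts in both groups and no test. The fits were tested on simulated data in which only genes above a count limit changed, and by large folds. That simulation did not cover genes with few counts, small changes or the earlier selection of genes.

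Members and gene lists were chosen with earlier results of these data known. Values in every library were given for up to 3 members per family with the largest change in each comparison against WT, among called members whose groups did not overlap and whose higher group reached 1 CPM. The rule added the most abundant member of each family and members changed at least 2-fold in PCN against PN. Of each partner list, up to 3 genes with the largest called change against WT were named. Values of other members are given to account for all 40. A gene with 0 counts in a group is a bound against 3 counts over the group, and other low genes have a count ratio with an exact 95% interval, which covers counting error only. Coordinates are those of the authors' tables. All 40 members have the same coordinates in GENCODE M21, and 8 share exon bases with another gene. Motifs were searched with Python 3.11.15 in the RefSeq promoter windows. DESeq2 1.42.0, other scalings, no filter, a fit over all libraries, a replicate block and leaving out each library were the alternatives.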

Additional observations from a re-analysis of the deposited data

How the results depend on the processing

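Of 96 fold changes of members, recomputed 1147 times, 919 values had a test: 865 kept their direction and side of the threshold, 49 lost the call, 5 gained it and 0 turned. The number of members called ran from 26 to 30 in PN against WT, 20 to 25 in PCN against WT and 19 to 22 in PCN against PN when 1 library was left out. Over all genes, 2587 to 3014 were then called higher and 2959 to 3217 lower in PN against WT. The ranges were 2621 to 3047 and 3011 to 3294 in PCN against WT, and 1683 to 1757 and 1534 to 1634 in PCN against PN. In the single fit over all 9 libraries it was 16 in PCN against PN in place of 22. Efna5 and Efnb2, without values in WT, were left out of that fit. Efna3, Ephb4 (adjusted p = 0.076), Sema3f (0.28) and Plxnb2 (0.38) were fitted and lost the call. Over all genes, that fit covered 3012 in this comparison in place of 3546, with genes without values in all 9 libraries left out. It called 1253 higher and 1160 lower, in place of 1809 and 1698 of 14758, so the drop includes genes that were not fitted. The replicate block gave 30, 25 and 21 members in place of 29, 25 and 22: Plxnb2 was gained in PN against WT (adjusted p = 0.026) and lost in PCN against PN (0.21). Over all genes, the block called 3041 higher and 3236 lower, 2895 and 3180, and 1743 and 1602 in the same order. The replicate numbers share no stated source, and libraries of the same number did not deviate together (correlations -0.151 to 0.126), so they do not pair the samples. Scaling by TMM moved the median by at most 0.06 in log2. Depth limits the members under 1 FPKM, whose values rest on few counts.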
